A study of Homo sapiens with 60 samples.

Results

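The RNA of 10 plasma membrane amino acid carriers was followed in A549, an established line of human lung adenocarcinoma cells. The genes were SLC7A5, SLC3A2, SLC7A6, SLC7A11, SLC7A1, SLC1A5, SLC1A4, SLC38A1, SLC38A2 and SLC6A9, chosen by name as carriers under control of phosphoinositide 3-kinase and of the transcription factor ATF4. The choice was made with earlier results of these data known. All 10 were found among the 60675 genes of the table and among the 17368 genes with enough counts to test. RNA was sequenced from 60 libraries in 20 groups of 3, each after 24 h. A single group received 10 µM wortmannin, a fungal metabolite that inhibits phosphoinositide 3-kinases and served as the positive control (Wortmannin). In the other 18 treated groups, cells were exposed to a herbal drug extracted with water, at a dose of 20, 100 or 500 µg/mL. The 6 drugs are here named Polygalae (Polygalae Radix), Aucklandiae (Aucklandiae Radix), Zizyphi (Zizyphi Semen), Longan (Longan Arillus), Schisandrae (Schisandrae Fructus) and Liriopis (Liriopis seu Ophiopogonis Tuber). The remaining group received dimethyl sulfoxide (Vehicle), at 0.1% by the sample labels and at 2% by the design text. No label gives a dimethyl sulfoxide level for a treated group, so solvent and treatment cannot be told apart. The design text also speaks of lower doses for toxic extracts, whereas each label states 20, 100 or 500 µg/mL, and the labels were followed. By the design text, samples with too little RNA were left out.

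Amino acid carriers bring the building blocks of protein, glutathione and nucleotides into the cell. Several work as exchangers that export glutamine or glutamate to import another amino acid, and leucine that enters through them is sensed by the kinase complex mTORC1, which acts downstream of phosphoinositide 3-kinase. When amino acids run short, or when mTORC1 is active, translation of ATF4 rises, and ATF4 binds an amino acid response element in many carrier and synthesis genes. Carriers of the LAT1, ASCT2 and xCT type are known to be abundant in lung carcinoma lines.

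The response element has the core TGATGNAA, so the RefSeq promoter windows of GRCh38.p14 (250 bases before to 50 after a gene's start) were searched for it on both strands. Windows were at hand for 9 of the 10 genes, and SLC7A11 had none. The core was found in windows of 5 of the 9 genes, and in 4.46% of the 27305 genes with a window. The 5 sites are shown because they are the stretches that the members share, in the direction of the gene, with the core in capitals. Those of SLC1A4 and SLC3A2 read on the opposite strand. They lie at chr2:64989382-64989409 (+), chr11:62881726-62881748 (+), chr12:46266503-46266530 (-), chr13:29595664-29595691 (-) and chr19:46784894-46784921 (-).
SLC1A4: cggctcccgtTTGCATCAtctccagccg
SLC3A2: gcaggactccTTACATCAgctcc
SLC38A1: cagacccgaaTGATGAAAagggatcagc
SLC7A1: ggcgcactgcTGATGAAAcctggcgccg
SLC1A5: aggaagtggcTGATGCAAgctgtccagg
The site of SLC1A4 began 7 bases and that of SLC38A1 4 bases before an annotated start. That of SLC1A5 began 97 bases before the start of an alternative transcript. The sites of SLC7A1 and SLC3A2 began 7 and 37 bases after a start.

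The 250 bases upstream of the genes that fell and rose most with wortmannin, SLC7A5 (chr16:87869508-87869757, -) and SLC38A2 (chr12:46372774-46373023, -), are given for comparison, since neither holds the core. Capitals mark CACGTG, the E-box that MYC and MiT/TFE factors bind, searched on both strands.
SLC7A5: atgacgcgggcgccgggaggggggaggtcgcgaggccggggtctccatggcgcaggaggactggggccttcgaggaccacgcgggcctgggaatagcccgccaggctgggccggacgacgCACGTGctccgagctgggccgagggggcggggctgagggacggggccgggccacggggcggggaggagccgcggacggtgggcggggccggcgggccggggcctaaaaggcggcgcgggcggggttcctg
SLC38A2: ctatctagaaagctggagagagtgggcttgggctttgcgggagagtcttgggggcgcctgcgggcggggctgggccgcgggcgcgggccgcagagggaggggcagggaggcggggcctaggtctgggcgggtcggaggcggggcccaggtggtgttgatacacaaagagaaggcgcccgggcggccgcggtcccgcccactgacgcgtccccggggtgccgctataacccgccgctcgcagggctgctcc
The E-box was found for 2 of the 9 genes, SLC7A5 and SLC1A5, and for 8.77% of all genes. The core of the antioxidant response element, TGACNNNGC, which NRF2 binds, was found for 5 of the 9 genes and for 16.1% of all genes. A match is a run of letters in a window, not a measured site of binding.

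The total of expected counts per library was 17.7 M to 30.6 M, with a median of 24.6 M (M for mega). Keratin and other epithelial markers of A549 cells (KRT8, KRT18, KRT19, EPCAM, CDH1) summed to 5111 to 7435 CPM (expected counts scaled by the TMM-corrected library total). Nearly all of this was KRT8 and KRT18, while KRT19, EPCAM and CDH1 had medians of 28.6, 4.81 and 32.0 CPM. Markers of type II differentiation summed to at most 0.312 CPM, endothelial markers to at most 0.394 CPM and fibroblast markers, nearly all of it COL1A1, to 18.8 to 35.0 CPM. Library names fall into 5 sets that follow the treatments: Wortmannin, Polygalae with Aucklandiae, Zizyphi with Longan, Schisandrae with Liriopis, and Vehicle. A set and a treatment therefore cannot be told apart in a comparison with Vehicle. The 3 Polygalae 20 libraries lay farthest from their group mean among the 60 libraries. Results of the members that rest on these libraries are given with and without them. In such bulk RNA, fewer cells of a type and less RNA per cell cannot be told apart.

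Levels were compared between genes per kilobase of merged exons. SLC7A5, which encodes LAT1, the light chain of the main importer of leucine and other large neutral amino acids, stood highest with 780 ± 6.82 CPM per kb in Vehicle (SD, n = 3). It was followed by SLC3A2 at 170 ± 5.01, SLC1A5 at 135 ± 4.87, SLC7A11 at 48.5 ± 3.85, SLC38A2 at 38.8 ± 1.86 and SLC38A1 at 36.7 ± 0.699 CPM per kb. SLC7A1 had 18.04 ± 0.136, SLC7A6 had 8.55 ± 0.161, SLC1A4 had 4.77 ± 0.203 and SLC6A9 had 1.90 ± 0.0697 CPM per kb. Only SLC38A2 and SLC38A1 were neighbours in this order whose Vehicle libraries overlapped. With wortmannin, SLC38A2 stood at 52.4 ± 0.793 CPM per kb, above SLC7A11 at 49.3 ± 1.87 CPM per kb, and the libraries of both genes did not overlap in that group.

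**Figure D1:**
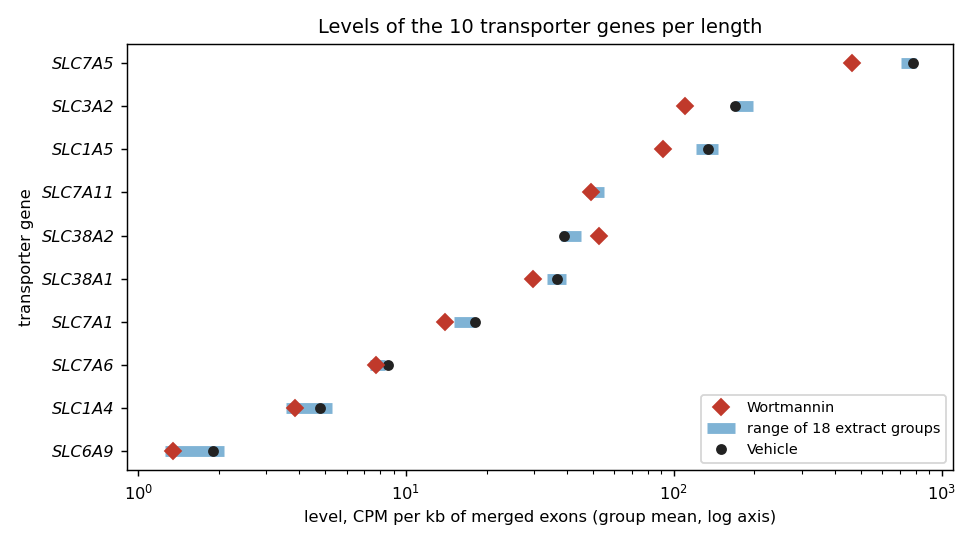
Group mean level of each transporter gene in CPM per kb of merged exons (log axis). Diamonds are Wortmannin, bars the range of the 18 extract groups and dots Vehicle. The Vehicle levels run from 1.90 CPM per kb for SLC6A9 to 780 CPM per kb for SLC7A5, and the Wortmannin diamond lies left of the extract bar for SLC7A5, SLC3A2, SLC1A5, SLC38A1 and SLC7A1 and right of it for SLC38A2.

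Wortmannin lowered most of the carriers. At an adjusted p under 0.05 (edgeR's quasi-likelihood test, Benjamini-Hochberg adjustment over all genes tested), 8 of the 10 genes fell, 1 rose and 1 did not pass, while 37.4% of all tested genes passed, 18% by rising and 19.4% by falling. The median log2 difference was -0.33 over the 10 genes and 0.01 over all genes. In 9 of the 10 genes the 3 Wortmannin libraries did not overlap those of Vehicle, as in 51% of all genes.

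The heteromeric exchangers consist of a light chain that carries the amino acid and the heavy chain SLC3A2 (CD98, 4F2hc), which brings it to the cell surface. SLC7A5 (ENSG00000103257, chromosome 16, 87830023 to 87869488 on GRCh38) had 2162, 2248 and 2203 CPM in Wortmannin libraries, against 3671, 3693 and 3735 CPM in Vehicle libraries. Every Wortmannin library lay far below every Vehicle library, a log2 difference of -0.75 ± 0.04 (SE, adjusted p = 9.8e-25). SLC3A2 (ENSG00000168003, chromosome 11, 62856102 to 62888875) had 567.8, 578.7 and 568.9 CPM with wortmannin, against 850.7, 882.7 and 902.1 CPM in Vehicle. The groups did not overlap and the difference was -0.62 ± 0.05 (SE, adjusted p = 1.0e-15). The heavy chain and its most abundant light chain thus fell by similar amounts.

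Other light chains moved less. SLC7A6, the y+LAT2 chain that exchanges arginine for neutral amino acids, had 59.9, 56.9 and 59.2 CPM with wortmannin, against 65.2, 63.5 and 65.9 CPM in Vehicle. It fell by 0.15 on the log2 scale (adjusted p = 0.0176, edgeR), and the call was lost without Vehicle replicate 3 (-0.13), without Wortmannin replicate 2 (-0.12) or with genes under a mean of 5 CPM left out (-0.11). SLC7A6OS overlaps SLC7A6 on the opposite strand with a count of 36.8% of that of SLC7A6, and the strand setting of the counting is not given in the sources used here. SLC7A11, the xCT chain that imports cystine for glutathione in exchange for glutamate, had 454.8, 484.2 and 487.5 CPM with wortmannin, against 489.8, 424.6 and 488.0 CPM in Vehicle. Its libraries overlapped, and its difference of 0.02 had a 95% interval from -0.06 to 0.11, so it was the member without a call.

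The carriers of glutamine and small neutral amino acids split. SLC1A5 (ASCT2), a sodium-dependent exchanger that takes up glutamine, had 305.5, 306.2 and 301.9 CPM with wortmannin, against 434.4, 445.2 and 466.3 CPM in Vehicle (-0.56 ± 0.03, SE, adjusted p = 7.0e-21). SLC38A1 (SNAT1), a sodium-coupled glutamine carrier, had 296.1, 294.2 and 303.3 CPM with wortmannin, against 369.0, 360.5 and 374.3 CPM in Vehicle (-0.30 ± 0.04, adjusted p = 7.2e-09). SLC38A2 (SNAT2), the sodium-coupled carrier known to be induced when amino acids are scarce, had 348.6, 340.2 and 349.8 CPM with wortmannin, against 265.0, 242.2 and 261.4 CPM in Vehicle. Its rise of 0.43 ± 0.03 (SE, adjusted p = 5.4e-16) ran opposite to every other call among the members, and no library of either group came near the other group.

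SLC1A4 (ASCT1), which exchanges alanine, serine and cysteine, had 26.4, 28.5 and 25.6 CPM with wortmannin, against 31.7, 34.5 and 33.2 CPM in Vehicle (-0.30 ± 0.05, SE, adjusted p = 8.5e-07). SLC7A1 (CAT1), the arginine and lysine importer that needs no heavy chain, had 105.5, 108.9 and 109.2 CPM with wortmannin, against 138.2, 140.0 and 138.1 CPM in Vehicle (-0.36 ± 0.05, adjusted p = 1.0e-07). SLC6A9 (GlyT1), the glycine importer, was the least abundant member, with 7.72, 6.72 and 6.44 CPM with wortmannin, against 10.1, 9.43 and 9.79 CPM in Vehicle (-0.49 ± 0.10, adjusted p = 4.2e-05). All of these fell with no overlap between the groups. CCDC24 overlaps SLC6A9 on the opposite strand with 53.8% of its count, so part of the SLC6A9 count could belong to that gene. For SLC7A11 its antisense gene had 1.1% of its count.

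**Figure D2:**
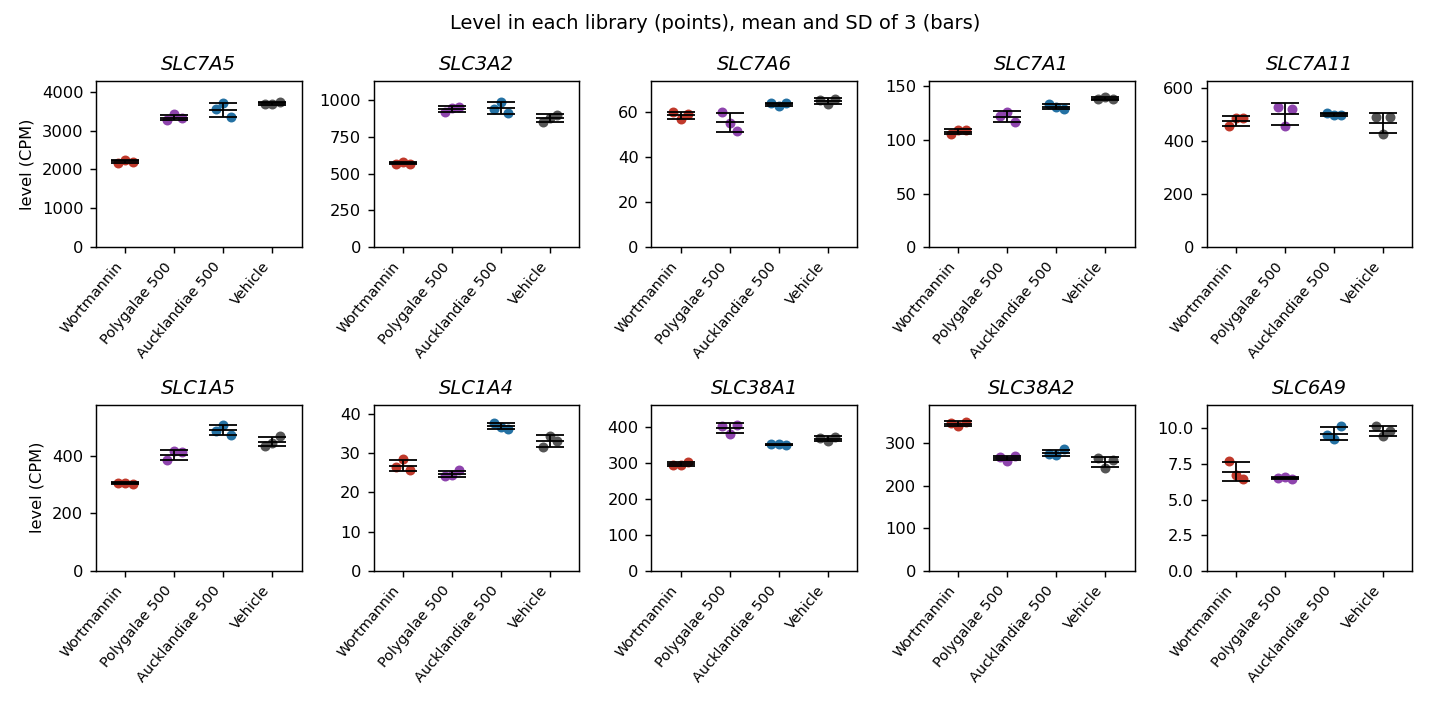
Level in CPM of each transporter gene in the 3 libraries of Wortmannin, Polygalae 500, Aucklandiae 500 and Vehicle (points), with mean and SD (bars); every axis starts at 0. SLC7A5 lies at 2162 to 2248 CPM in Wortmannin against 3671 to 3735 CPM in Vehicle, and SLC38A2 is the panel in which Wortmannin stands above the other groups.

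Genes that act with the carriers were counted by list, beside the 37.4% of all tested genes that passed with wortmannin. Of 20 regulators of the amino acid response and of mTORC1, 12 fell with wortmannin and 0 rose (median log2 difference -0.25). ATF4 itself had 172 ± 1.55 CPM with wortmannin and 264 ± 8.39 CPM in Vehicle (SD, n = 3 each; -0.62, adjusted p = 1.4e-20 by edgeR). TRIB3, a pseudokinase induced by ATF4, fell by 0.69, the stress-regulated NUPR1 by 1.39 and the translation repressor EIF4EBP1 by 0.69 on the log2 scale.

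Of 21 enzymes that use the carried amino acids, 14 fell and 1 rose with wortmannin (median -0.41). Asparagine synthetase, ASNS, had 29.98 ± 1.75 CPM with wortmannin and 97.4 ± 2.35 CPM in Vehicle (SD, n = 3 each; -1.70). The serine synthesis enzymes PSAT1 (-1.18) and PHGDH (-1.22), the branched-chain aminotransferase BCAT1 (-0.82) and CHAC1, which degrades glutathione (-2.49), fell too. These 5 enzymes were named for a small adjusted p or as readouts, so their size cannot be set against that of the 10 carriers. The median was -0.41 over the 21 enzymes and -0.33 over the 10 carriers.

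Carriers in other places were mixed, where 37.4% of all tested genes passed (18% rose and 19.4% fell). Of 11 other plasma membrane carriers with enough counts (of 19 listed), 3 rose and 2 fell, near that share. SLC7A9 rose by 1.31, and DESeq2 gave 1.33 but no adjusted p for it, so it was not called there. SLC1A1, a glutamate and cysteine importer, rose by 0.74 at a low level (2.67 ± 0.301 CPM with wortmannin and 1.60 ± 0.143 CPM in Vehicle), and the large neutral amino acid carriers SLC43A1 (-0.53) and SLC43A2 (-0.25) fell. Of 8 lysosomal carriers tested (of 10), 1 rose and 2 fell, again near the share of all genes. The cystine exporter CTNS (-0.32) fell, as did SLC36A4 (-0.18), whose call was lost without Vehicle replicate 3 (-0.14). The cysteine importer MFSD12 rose (0.09), a call lost with any library of the comparison left out (0.08 to 0.11). Of 10 mitochondrial carriers, 2 rose and 5 fell. The basic amino acid carrier SLC25A29 rose by 0.58 and the serine carrier SFXN3 by 0.29, while the glycine carrier SLC25A38 fell by 0.29 on the log2 scale.

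Among the extracts, Polygalae had the most calls among the carriers. At 500 µg/mL, 6 of the 10 genes fell and 1 rose against Vehicle, while 19.9% of all tested genes passed (10.4% rose and 9.48% fell). The median log2 difference was -0.15 over the members and 0.00 over all genes. Libraries did not overlap in 8 of the 10 genes, as in 36.9% of all genes.

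The largest falls among the 10 were those of the glycine carrier and of ASCT1. SLC6A9 had 6.48, 6.57 and 6.42 CPM in Polygalae 500 libraries, against 10.1, 9.43 and 9.79 CPM in Vehicle libraries, a difference of -0.59 ± 0.10 (SE, adjusted p = 9.5e-06, edgeR). SLC1A4 had 24.1, 24.4 and 25.7 CPM with Polygalae 500, against 31.7, 34.5 and 33.2 CPM in Vehicle, a difference of -0.42 ± 0.05 (SE, adjusted p = 1.8e-09). In both genes the groups were well apart.

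The other calls were smaller. SLC7A6 fell by 0.22 (51.7 to 59.9 CPM with Polygalae 500, against 63.5 to 65.9 CPM in Vehicle), SLC7A1 by 0.18 (116.7 to 126.3 against 138.1 to 140.0 CPM), SLC1A5 by 0.15 (383.4 to 415.8 against 434.4 to 466.3 CPM) and SLC7A5 by 0.15 (3261 to 3413 against 3671 to 3735 CPM). SLC38A1 rose by 0.11 (381.3 to 406.9 CPM with Polygalae 500, against 360.5 to 374.3 CPM in Vehicle), with an adjusted p of 0.0432 by edgeR. That call was lost when any Vehicle library (0.10 to 0.12), Polygalae 500 replicate 1 (0.10) or replicate 3 (0.09) was left out, and without the filter on low counts (0.10). The call of SLC7A1 was lost without Polygalae 500 replicate 3 (-0.15).

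The remaining members did not pass. SLC3A2 had 921.1, 949.8 and 953.5 CPM with Polygalae 500, against 850.7, 882.7 and 902.1 CPM in Vehicle, so the groups did not overlap, and its difference of 0.10 had a 95% interval from 0.00 to 0.20 (adjusted p = 0.141, edgeR). It passed in the 6 libraries of the comparison alone and in a fit without the Polygalae 20 libraries, with 0.10 in both. SLC7A11 differed by 0.10 (95% interval 0.01 to 0.19) and SLC38A2 by 0.05 (-0.02 to 0.12). SLC7A11 passed without Vehicle replicate 1 (0.13), Vehicle replicate 3 (0.13) or Polygalae 500 replicate 2 (0.16).

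**Figure D3:**
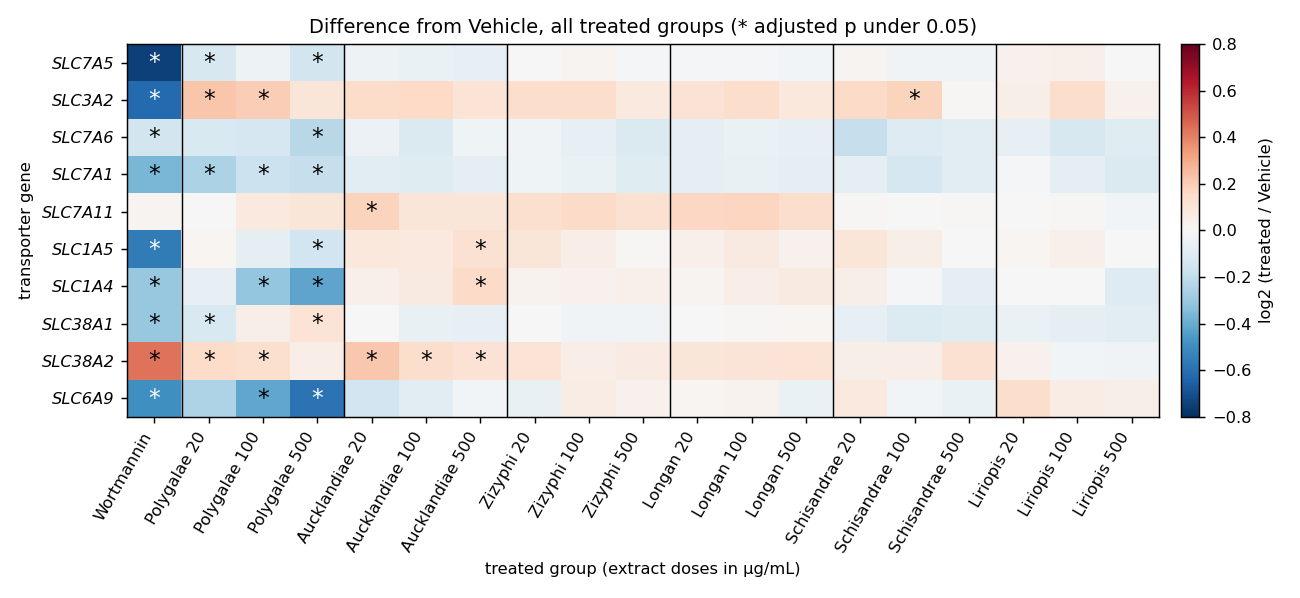
Log2 difference from Vehicle (colour) of the 10 transporter genes (rows) in the 19 treated groups (columns; doses in µg/mL). A star marks an adjusted p under 0.05. Calls stand mainly in the Wortmannin column (9 genes) and in the Polygalae columns (5, 5 and 7 genes at 20, 100 and 500 µg/mL), and all columns share the same 3 Vehicle libraries.

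Across the Polygalae doses the carriers did not move alike. SLC1A4 averaged 31.7 ± 2.21, 26.8 ± 1.13 and 24.7 ± 0.850 CPM at 20, 100 and 500 µg/mL (SD, n = 3 each), a slope of -0.18 ± 0.03 per 5-fold step of dose over the 9 libraries (SE, adjusted p = 0.00532, edgeR). SLC1A5 averaged 454.3 ± 5.79, 427.6 ± 7.63 and 403.3 ± 17.4 CPM, a slope of -0.09 ± 0.02 (adjusted p = 0.0496). These 2 slopes passed among the 10 genes, while 5.03% of all tested genes passed. Both genes were lower at 500 than at 20 µg/mL in each library.

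The slopes depended on the libraries used. Without the Polygalae 20 libraries 0 passed by edgeR, with -0.12 per step for SLC1A4 and -0.09 for SLC1A5 from the 6 libraries left. The SLC1A5 call was lost with any library left out except Polygalae 20 replicate 1 (-0.07 to -0.10). Without Polygalae 20 replicate 1, 5 genes passed, with SLC6A9 (-0.23), SLC38A1 (0.07) and SLC7A6 (-0.09) added. In all 9 libraries the slope of SLC6A9 was -0.17 (95% interval -0.29 to -0.05) and that of SLC38A1 was 0.12 (0.04 to 0.20).

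At the lower Polygalae doses 5 members passed at each, against 12.8% of all genes at 100 µg/mL and 12.1% at 20 µg/mL. At 100 µg/mL SLC6A9 (-0.41), SLC1A4 (-0.31) and SLC7A1 (-0.17) fell, and SLC3A2 (0.20) and SLC38A2 (0.13) rose. SLC7A6 (-0.13) did not pass there, but did in the 6 libraries alone and without the Polygalae 20 libraries. The SLC38A2 call was lost without Vehicle replicate 2 (0.09), and that of SLC7A1 without Vehicle replicate 1 (-0.17) or 2 (-0.16) or Polygalae 100 replicate 1 (-0.17) or 3 (-0.15). At 20 µg/mL SLC3A2 (0.22) and SLC38A2 (0.15) rose, and SLC7A1 (-0.25), SLC7A5 (-0.13) and SLC38A1 (-0.12) fell.

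Polygalae 20 replicate 1 stood apart from its own group in several members. It had 1169 CPM of SLC3A2, against 959.9 and 947.3 CPM in the other libraries of that group. For SLC38A1 it had 289.4 CPM, against 364.9 and 358.6 CPM, and for SLC7A1 95.8 CPM, against 127.9 and 125.3 CPM. Without it SLC3A2 (0.12), SLC7A5 (-0.07) and SLC38A1 (-0.02) no longer passed at 20 µg/mL, and SLC7A1 (-0.13) still did. SLC38A2 at 20 µg/mL was lost without Vehicle replicate 2 (0.11), and SLC7A5 (-0.12) and SLC38A1 (-0.11) were lost without Vehicle replicate 3, SLC38A1 (-0.12) also without Vehicle replicate 1. In the 6 libraries of Polygalae 20 and Vehicle alone, none of the 5 passed by edgeR. SLC6A9 did not pass at 20 µg/mL, but did without Polygalae 20 replicate 3 (-0.35), and SLC7A6 without replicate 2 (-0.17).

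**Figure D4:**
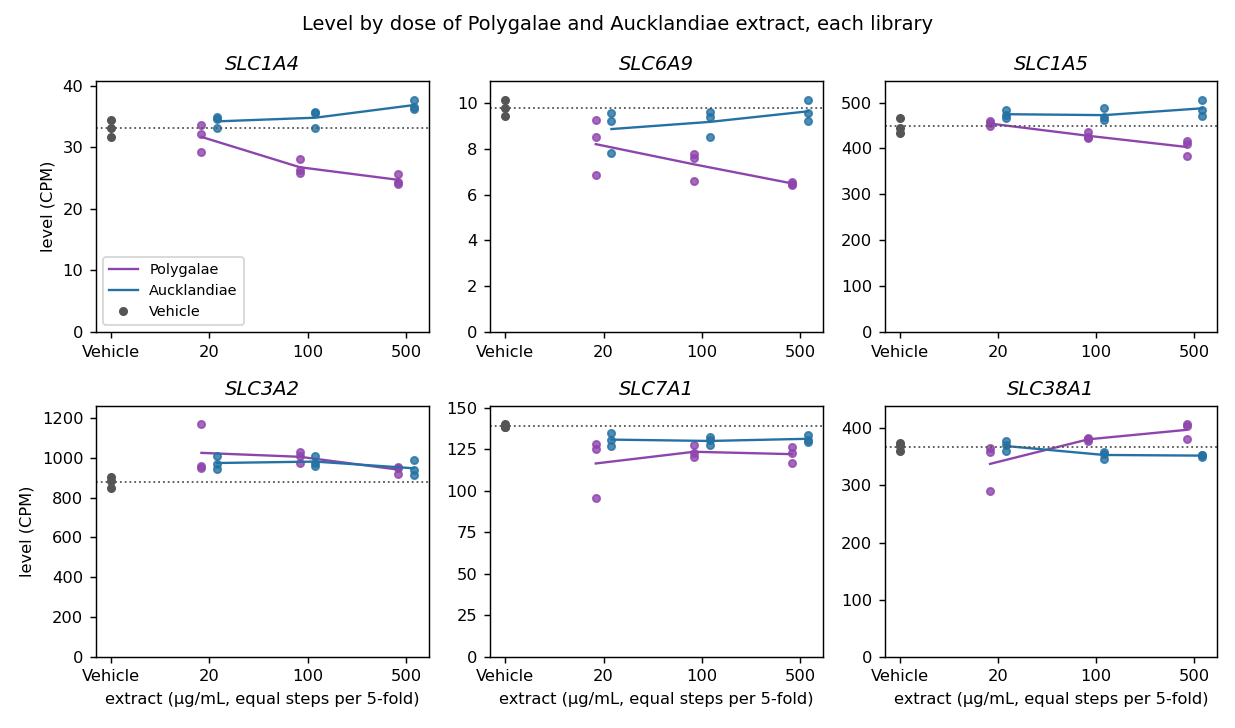
Level in CPM of 6 transporter genes at each dose of Polygalae and Aucklandiae extract, with Vehicle at the left (points are libraries, lines join group means, the dotted line is the Vehicle mean). SLC1A4 and SLC6A9 lie lower at 500 µg/mL Polygalae (24.7 and 6.49 CPM) than at 500 µg/mL Aucklandiae (36.8 and 9.64 CPM), and a single Polygalae 20 library lies apart in SLC3A2, SLC7A1 and SLC38A1.

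Polygalae and Aucklandiae share a library set, so their 500 µg/mL groups were compared directly. Of the 10 genes, 4 were lower and 1 was higher with Polygalae, while 15.2% of all tested genes passed. SLC1A4 averaged 24.7 ± 0.850 CPM with Polygalae 500 and 36.8 ± 0.785 CPM with Aucklandiae 500 (SD, n = 3 each; -0.58, adjusted p = 6.2e-14, edgeR). SLC6A9 averaged 6.49 ± 0.0747 CPM with Polygalae 500 and 9.64 ± 0.463 CPM with Aucklandiae 500 (-0.57, adjusted p = 2.7e-05). SLC1A5 averaged 403.3 ± 17.4 CPM with Polygalae 500 and 487.6 ± 17.6 CPM with Aucklandiae 500 (-0.27, adjusted p = 2.4e-09). SLC38A1 was the member that was higher, with 397.2 ± 13.9 CPM with Polygalae 500 and 352.1 ± 1.55 CPM with Aucklandiae 500 (0.17, adjusted p = 0.000989). SLC7A6 had a difference of -0.19, a call lost without Polygalae 500 replicate 3 (-0.15). SLC7A5 differed by -0.08 and passed without Aucklandiae 500 replicate 3 (-0.12). SLC7A1 (-0.10) passed in the 6 libraries alone and without the Polygalae 20 libraries.

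The related lists were counted for Polygalae 500 in the same way, where 19.9% of all tested genes passed (10.4% rose and 9.48% fell). Of the 8 lysosomal carriers tested, 6 rose and 0 fell (median 0.39, against 0.00 over all genes). CTNS, the lysosomal cystine exporter, had 25.2 ± 1.90 CPM with Polygalae 500 and 15.2 ± 0.663 CPM in Vehicle (SD, n = 3 each; 0.72, adjusted p = 2.3e-13 by edgeR). The glutamine exporter SLC38A7 rose by 0.57, the cysteine importer MFSD12 by 0.40 and the lysine and arginine exporter SLC66A1 by 0.71. At 100 µg/mL 6 of the 8 rose as well, where 12.8% of all genes passed. Over the Polygalae doses 6 of the 8 slopes were positive and passed, while 5.03% of all slopes passed in either direction. The slopes of this list are not given without the Polygalae 20 libraries. Over all genes 873 slopes passed with those libraries and 419 without them.

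Regulators were split with Polygalae 500, 8 rising and 3 falling of 20. TRIB3 rose by 0.90 (adjusted p = 3.2e-24), DDIT3 (CHOP) by 0.73 and PPP1R15A (GADD34), which reverses translational arrest, by 0.41, while the leucine sensor SESN2 fell by 0.69 and ATF4 by 0.13 on the log2 scale. The ATF4 call was lost without Vehicle replicate 2 (-0.11) or Polygalae 500 replicate 1 (-0.11). Of the 21 enzymes 4 rose and 8 fell, with ASNS (-0.48), CHAC1 (-0.92), PHGDH (-0.46), BCAT1 (-0.40) and PSAT1 (-0.33) among the falls. Of the 11 other plasma membrane carriers 4 rose and 1 fell, with the taurine carrier SLC6A6 (0.27) and the y+LAT1 light chain SLC7A7 (0.25) higher and SLC43A2 (-0.27) lower. Of 10 mitochondrial carriers 1 rose, the aspartate and glutamate carrier SLC25A13 (0.32), and none fell.

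Other markers moved with these groups. Replication-dependent histones, whose messages mostly lack a poly(A) tail, were listed as a check of RNA quality and library making. As their name says, they also follow replication, so RNA quality and replication cannot be told apart in their sums. They summed to 30.3 to 31.3 CPM with Polygalae 500, 47.0 to 49.6 CPM with wortmannin and 38.9 to 42.2 CPM in Vehicle. Of 8 tested, 4 fell with Polygalae 500, where 9.48% of all tested genes fell. With wortmannin 4 of the 8 rose, where 18% of all tested genes rose. Of the wortmannin calls, H4C8 was lost by DESeq2 (0.41), without the filter on low counts (0.41), without Vehicle replicate 1 (0.37) or 3 (0.43) and without Wortmannin replicate 2 (0.40) or 3 (0.35). H2AC6 was lost without the filter (0.21), without Vehicle replicate 3 (0.17) and without Wortmannin replicate 2 (0.20). H1-2 with Polygalae 500 was lost without Polygalae 500 replicate 1 (-0.29). The blood cell list summed to 21.4 to 23.9 CPM with Polygalae 500, 15.9 to 19.3 CPM with wortmannin and 11.5 to 12.3 CPM in Vehicle, nearly all of it CD68, a lysosomal protein, with PTPRC, HBB and CD3E at 0 in most libraries. Epithelial markers summed to 5111 to 5388 CPM with Polygalae 500, 6028 to 6155 CPM with wortmannin and 6303 to 6649 CPM in Vehicle. The part of these differences in the carrier results was not tested.

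Polygalae 500 was then compared with wortmannin directly. Of the 10 genes, 5 were higher and 1 was lower with Polygalae 500 than with wortmannin, while 44% of all tested genes passed. SLC3A2 averaged 941.4 ± 17.7 CPM with Polygalae 500 and 571.8 ± 6.02 CPM with wortmannin (SD, n = 3 each; 0.72, adjusted p = 2.5e-18, edgeR). SLC7A5 averaged 3335 ± 76.3 CPM with Polygalae 500 and 2204 ± 43.2 CPM with wortmannin (0.60, adjusted p = 1.2e-20). The differences were 0.41 for SLC1A5, 0.41 for SLC38A1 and 0.18 for SLC7A1, and -0.38 for SLC38A2.

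For the remaining 4 genes a difference was not shown. SLC6A9 differed by -0.10 (95% interval -0.32 to 0.11), SLC1A4 by -0.12 (-0.23 to -0.02), SLC7A6 by -0.08 (-0.18 to 0.03) and SLC7A11 by 0.07 (-0.01 to 0.16). SLC1A4 passed, lower with Polygalae 500, without Wortmannin replicate 3 (-0.15) or Polygalae 500 replicate 3 (-0.15), in the 6 libraries alone (-0.13), with genes under a mean of 5 CPM left out (-0.16), and in fits with a replicate block or without the Polygalae 20 libraries (-0.12 in both). SLC7A11 passed, higher with Polygalae 500, without Polygalae 500 replicate 2 (0.14). Both treatments belong to different library sets, so a set difference cannot be told apart from theirs.

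**Figure D5:**
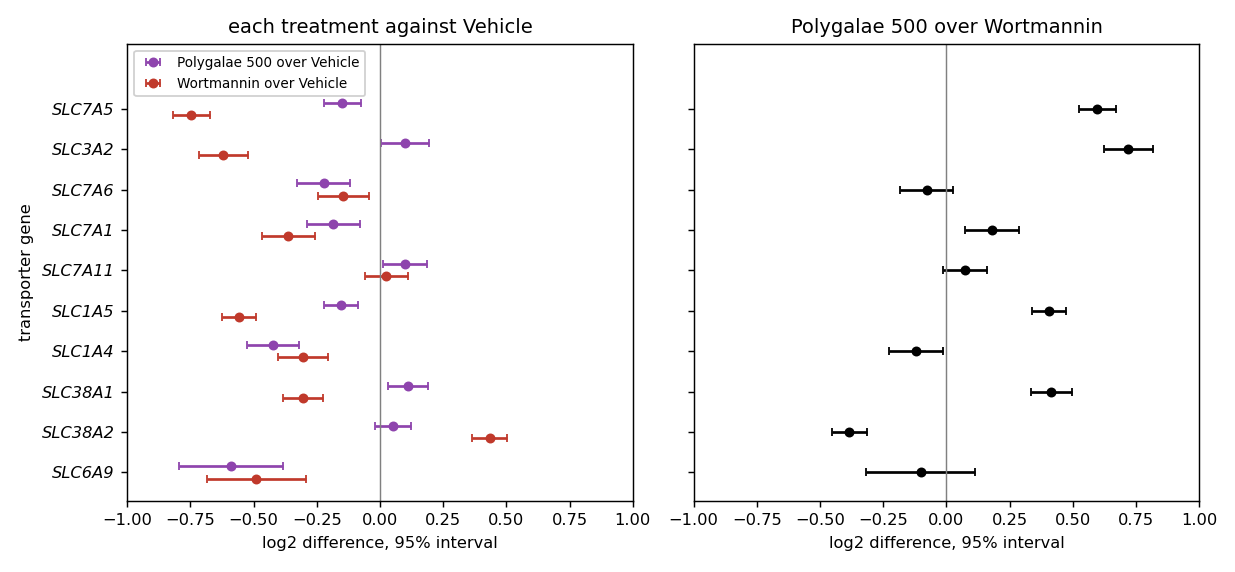
Log2 differences with 95% intervals for each transporter gene. The left panel gives Polygalae 500 and Wortmannin each over Vehicle (the 3 Vehicle libraries are shared), and the right panel Polygalae 500 over Wortmannin. Intervals in the right panel lie clear of 0 for SLC7A5, SLC3A2, SLC1A5, SLC38A1, SLC7A1 and SLC38A2, which passed, and just clear of it for SLC1A4, which did not.

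Aucklandiae moved few carriers, and upwards. At 500 µg/mL SLC1A4 (0.15), SLC1A5 (0.12) and SLC38A2 (0.12) rose and none fell, while 4.93% of all tested genes passed. SLC1A5 had 484.7, 506.4 and 471.6 CPM with Aucklandiae 500, against 434.4, 445.2 and 466.3 CPM in Vehicle. The libraries did not overlap but lay close. These calls rested on few libraries. Of the 3, 1 was left without Vehicle replicate 1, without Vehicle replicate 2 or without Aucklandiae 500 replicate 3, 0 without Aucklandiae 500 replicate 1 or 2, and 0 without the filter on low counts (edgeR). In the full fit 5 of the 10 had an unadjusted p under 0.05, as did 18.9% of all genes, and DESeq2 gave 2 calls. In the related lists 6 of the 21 enzymes rose and 2 fell, and 2 of the 20 regulators fell and 0 rose. ATF4 was among these falls (-0.15), a call lost without Vehicle replicate 2 (-0.12) or Aucklandiae 500 replicate 3 (-0.13).

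At 20 µg/mL Aucklandiae, SLC38A2 (0.22) and SLC7A11 (0.18) rose, and at 100 µg/mL SLC38A2 (0.14) rose, with 2.99% and 2.04% of all genes passing. SLC38A2 had 297.1, 299.0 and 297.2 CPM at 20 µg/mL, against 265.0, 242.2 and 261.4 CPM in Vehicle. SLC38A2 at 100 µg/mL was lost without Vehicle replicate 2 (0.10) or Aucklandiae 100 replicate 2 (0.14) or 3 (0.11), and SLC7A11 without Vehicle replicate 2 (0.12) or Aucklandiae 20 replicate 2 (0.17) and in the 6 libraries alone (0.18). SLC3A2 did not pass at either dose, but did by DESeq2 (0.15 at 20 and 0.16 at 100 µg/mL), without the filter on low counts (0.14 and 0.15), with genes under a mean of 5 CPM left out (0.15 and 0.16), in the 6 libraries alone (0.15 and 0.16) and without the Polygalae 20 libraries (0.15 and 0.16). At 500 µg/mL it passed in the 6 libraries alone (0.11). No dose slope of Aucklandiae passed among the 10 genes by edgeR or DESeq2, against 0.967% of all genes by edgeR. An unadjusted p under 0.05 was found for 4 of the 10 and for 9.64% of all genes, and the 95% intervals lay between -0.08 and 0.15 per 5-fold step.

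Zizyphi, Longan, Schisandrae and Liriopis gave no call among the carriers at the highest dose. At 500 µg/mL, 0 of the 10 genes passed for each (edgeR, against 1.81%, 0.104%, 0.478% and 0.00576% of all genes). At an unadjusted p under 0.05 there were 2, 2, 2 and 3 of the 10 genes, against 13.7%, 10.1%, 10.7% and 8.24% of all genes, and DESeq2 called 0, 0, 1 and 0, the 1 being SLC38A2 with Schisandrae (0.12). The log2 differences lay between -0.12 and 0.14, and the 95% intervals between -0.24 and 0.24. In the 6 libraries of a comparison alone, SLC7A1 passed for Zizyphi (-0.10) and SLC38A2 for Longan (0.11).

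The same extracts at 20 and 100 µg/mL gave 1 call, a rise of SLC3A2 by 0.18 with Schisandrae 100 (1.4% of all genes passed there). In the other 7 of these comparisons 0 members passed by edgeR. The share of all genes that passed was 0.363% and 0.599% for Zizyphi 20 and 100, 0.0173% and 0.132% for Longan 20 and 100, 0.0864% and 0.00576% for Liriopis 20 and 100, and 0.196% for Schisandrae 20. An unadjusted p under 0.05 was found for 4 and 2 members with Zizyphi 20 and 100 (11.7% and 11.8% of all genes), 3 and 4 with Longan 20 and 100 (9.79% and 10.8%), 0 and 2 with Liriopis 20 and 100 (8.5% and 9.66%) and 3 with Schisandrae 20 (11.1%). DESeq2 called SLC7A11 with Zizyphi 100 (0.15), Longan 100 (0.17) and Longan 20 (0.16), SLC38A2 with Zizyphi 20 (0.11) and SLC7A6 with Schisandrae 20 (-0.19). SLC7A11 also passed with Longan 100 when genes under a mean of 5 CPM were left out (0.17). Without the Polygalae 20 libraries, SLC3A2 passed with Zizyphi 20, Zizyphi 100 and Longan 100 (0.14 each) and with Schisandrae 20 (0.16). In the same fit SLC7A11 passed with Longan 100 (0.17) and SLC7A6 with Schisandrae 20 (-0.19). With Schisandrae 100, SLC38A1 (-0.11) and SLC7A1 (-0.13) passed there as well. In the 6 libraries alone, SLC3A2 passed with Zizyphi 20, Zizyphi 100 and Longan 100 (0.14 each), Longan 20 (0.11) and Schisandrae 20 (0.15). SLC7A6 passed there with Schisandrae 20 (-0.19). Without the filter on low counts, SLC7A11 passed with Zizyphi 100 (0.14), Longan 100 (0.16) and Longan 20 (0.16). That fit also called SLC3A2 (0.15) and SLC7A6 (-0.19) with Schisandrae 20 and SLC7A1 (-0.14) with Schisandrae 100. The SLC3A2 call with Schisandrae 100 was lost without any of the Vehicle libraries (0.16 to 0.20) and without Schisandrae 100 replicate 1 (0.17) or 3 (0.16). Over the 12 lower-dose groups of all 6 extracts, 14 of 120 member tests passed, 8 higher and 6 lower, and 8 passed without Vehicle replicate 2. Of the 14, 5 each came from Polygalae 20 and Polygalae 100, where 12.1% and 12.8% of all genes passed. In the other groups at most 2.99% of all genes passed. In 7 of the 12 groups no member passed, and all 12 share the same 3 Vehicle libraries. No dose slope of Zizyphi, Longan, Schisandrae or Liriopis passed among the members by edgeR or DESeq2, against 0.351%, 0.0345%, 0.0403% and 0.0461% of all genes by edgeR. At an unadjusted p under 0.05 there were 1, 0, 5 and 1 members, against 8.9%, 4.54%, 6.71% and 5.51% of all genes. The 95% intervals of these slopes lay between -0.15 and 0.14 per 5-fold step.

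The direct comparisons of the other 2 pairs within a library set gave 1 call. Schisandrae 500 had 272.5, 274.9 and 289.2 CPM of SLC38A2, against 260.8, 261.6 and 230.9 CPM with Liriopis 500 (0.15 ± 0.03, SE, adjusted p = 0.0313, edgeR, where 0.322% of all genes passed). The lowest of these libraries was Liriopis 500 replicate 3, without which the difference was 0.09 and did not pass. It did not pass either without any of the Schisandrae 500 libraries (0.12 to 0.17) or in the 6 libraries alone (0.15). Between Zizyphi 500 and Longan 500, 0 of the 10 genes passed by edgeR, with 0 by DESeq2 and 0.213% of all genes by edgeR. At an unadjusted p under 0.05 there were 0 of the 10, against 6.43% of all genes. The intervals there lay between -0.15 and 0.28.

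Among the members, the levels of SLC7A11 and SLC38A1 alone are given here by library set. SLC7A11 had group means of 507.6 to 526.2 CPM in the 6 groups of Zizyphi and Longan, and of 460.6 to 471.2 CPM in the 6 groups of Schisandrae and Liriopis. In Vehicle it averaged 467.5 ± 37.1 CPM (SD, n = 3). SLC38A1 had group means of 360.7 to 371.8 CPM with Zizyphi and Longan, of 340.6 to 354.9 CPM with Schisandrae and Liriopis, and of 367.9 ± 7.00 CPM in Vehicle. For both genes the ranges of group means of Zizyphi with Longan and of Schisandrae with Liriopis did not overlap, but single libraries did. The group means of Polygalae and Aucklandiae, the remaining set of extracts, reached into both ranges. They ran from 466.3 to 529.9 CPM for SLC7A11 and from 337.6 to 397.2 CPM for SLC38A1. SLC7A11 had 472.5 to 545.4 CPM in the libraries of Zizyphi and Longan and 445.1 to 484.5 CPM in those of Schisandrae and Liriopis. SLC38A1 had 353.8 to 383.2 CPM in the libraries of Zizyphi and Longan and 324.8 to 361.1 CPM in those of Schisandrae and Liriopis. Extract and library set cannot be told apart.

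Several members lay on the same side of Vehicle in all extract groups. The group mean of SLC3A2 was above Vehicle in 18 of 18 extract groups (885.9 to 1026 CPM, against 878.5 ± 26.0 CPM in Vehicle). SLC7A1 (116.4 to 138.0 CPM, against 138.7 ± 1.05 CPM) and SLC7A6 (55.5 to 63.6 CPM, against 64.9 ± 1.22 CPM) were below Vehicle in 18 of 18. All 18 comparisons share the same 3 Vehicle libraries, so these counts are not 18 separate observations. The share of all genes that lay on a single side of Vehicle in this way was not counted. Vehicle is a library set of its own, so an offset of Vehicle and an effect of the extracts cannot be told apart.

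The balance of LAT1 to its heavy chain was followed as the ratio of SLC7A5 to SLC3A2, both per kb. It was 4.15, 4.24 and 4.23 in Wortmannin libraries, against 4.71, 4.57 and 4.52 in Vehicle libraries. At 20, 100 and 500 µg/mL Polygalae it averaged 3.66, 3.90 and 3.87, with 2.91 in Polygalae 20 replicate 1 and 4.04 and 4.02 in the other libraries of that group. Aucklandiae averaged 4.03, 3.97 and 4.07 at 20, 100 and 500 µg/mL, Zizyphi 4.18, 4.23 and 4.31, Longan between 4.12 and 4.28, Schisandrae 4.19, 3.99 and 4.47, and Liriopis 4.55, 4.30 and 4.51. The mean ratio thus lay below the Vehicle mean in each of the 19 treated groups, which share the same 3 Vehicle libraries. The ratio was not tested.

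Across the 20 group means of log2 CPM, SLC7A5 followed SLC1A5 (Pearson r = 0.92) and SLC3A2 (0.87), and ran opposite to SLC38A2 (-0.84). These are descriptions over 20 groups that share library sets and depth scaling, and Wortmannin weighed heavily in them. Over the 19 groups without Wortmannin the values were 0.44, -0.29 and -0.46. SLC1A4 followed SLC6A9 with r = 0.84 over 20 groups and 0.80 over 19, and SLC1A5 followed SLC1A4 with 0.74 and 0.92. With ATF4 as the partner, SLC7A5 had r = 0.92 over 20 groups and 0.49 over 19, SLC38A2 had -0.89 and -0.65, and SLC7A11 had -0.17 and -0.73. SLC3A2 went from 0.83 to -0.14, SLC1A5 from 0.83 to 0.08, SLC7A1 from 0.66 to 0.07 and SLC38A1 from 0.48 to -0.58. SLC6A9 had 0.61 and 0.49, SLC1A4 0.43 and 0.11, and SLC7A6 0.16 and -0.07.

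Outside the members, the genes with the most similar pattern to SLC7A5 among 10851 genes were TPX2, YARS1 and PRC1 (r = 0.98 over 20 groups each, 0.76 to 0.79 over 19). For SLC1A5 they were MARS1, PSAT1 and PHGDH (0.98 to 0.99, and 0.89 to 0.93), and for SLC3A2 DDX49, ATP5F1B and PGAM1 (0.98, and 0.83 to 0.88). SLC7A1 was most like MKI67 (0.98, and 0.95), SLC1A4 like AP2B1 (0.93, and 0.93), SLC6A9 like EPB41L2 (0.94, and 0.92) and SLC38A1 like DNAJC13 (0.95, and 0.91). SLC7A11 was most like PHF6 (0.92, and 0.93), SLC38A2 like TMEM30A (0.92, and 0.78) and SLC7A6 like TRAM2 (0.82, and 0.81). TPX2, PRC1 and MKI67 are genes of dividing cells, YARS1 and MARS1 are aminoacyl-tRNA synthetases, and PSAT1 and PHGDH make serine.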

How the data were processed

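RNA of 60 A549 libraries was measured, 3 per group, with a strand-specific kit and paired reads per the labels' protocols. The deposited table holds expected counts (RSEM estimates that need not be whole), not scaled for depth. Per the submitters' processing notes, the authors counted with RSEM 1.3.3 on GRCh38, and STAR 2.7.3a, Trim Galore 0.6.5 and FastQC 0.11.9 are also named there. Neither the strand option used for counting nor the annotation version is given in the sources used here. RSEM divides reads between similar genes. For SLC7A5 this is of little weight, since its pseudogenes held at most 0.0170% of its count.

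Of the values, 10.7% were not whole, and all were rounded. Genes were filtered with edgeR's filterByExpr over the 20 groups, which kept 17368, and scaled with TMM (factors 0.965 to 1.05). One robust quasi-likelihood model with a mean per group was fitted to all 60 libraries (edgeR 4.0.16, limma 3.58.1, R 4.3.3). Each treated group was compared with Vehicle, and Polygalae 500 with Aucklandiae 500 and Wortmannin, Zizyphi 500 with Longan 500, and Schisandrae 500 with Liriopis 500. Dose slopes used the 9 libraries of an extract, with doses coded in 5-fold steps. Tests were two-sided, with Benjamini-Hochberg adjustment over all genes and a threshold of 0.05. Intervals cover 95%. No label says whether the replicates were grown as separate cultures. The p-values therefore measure the spread among these libraries only, and that spread may be technical. Same-numbered replicates did not deviate together, so numbers were not used as pairs.

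Log2 levels of group means used a prior count of 2, and levels per length the merged exons of GENCODE release 29, which also gave gene positions. Gene symbols came from the reference's gene table and GENCODE. Promoter windows were those of RefSeq on GRCh38.p14. The text names all 10 members, at most 4 genes with the smallest adjusted p of each related list in a comparison, ATF4, TRIB3, ASNS and CHAC1, and, by the correlation over 20 group means, genes most like each member. The members, lists and tests were chosen with earlier results of these data known. Alternatives were RLE factors, DESeq2 1.42.0, other filters on low counts, a replicate block, the libraries of a comparison alone, and leaving out each library. Leaving out the Polygalae 20 libraries was added after seeing the data.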

Additional observations from a re-analysis of the deposited data

How the results depend on the processing

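No called result among the members reversed its direction. For wortmannin 8 to 9 members passed under every alternative and with any library left out, for Polygalae 500 6 to 8 (5 to 8 with a library left out), for Polygalae 500 against Aucklandiae 500 5 to 6 (4 to 6) and against wortmannin 6 to 7 (6 to 7). Small counts moved. Aucklandiae 500 went to 0 without the filter on low counts and to 0 to 2 with a library left out. In the 6 libraries alone, Zizyphi 500 and Longan 500 had 1 and Schisandrae 500 against Liriopis 500 had 0 (0 to 1 with a library left out). Schisandrae 500 had 1 by DESeq2. The Polygalae slope (2 calls) gave 5 in the fit of all 60 libraries, 1 without the filter, 1 with the replicate block, 0 without the Polygalae 20 libraries and 1 to 5 with a library left out. The lower doses (14) gave 14 to 21, and 8 to 15 with a library left out. The cause of these moves was not tested. Deviations from the group mean of same-numbered libraries had a median correlation of -0.0037 within library sets and 0.0014 between them. No shared deviation by number was thus seen, which does not show whether same-numbered libraries were handled together. The replicate block moved no other count of members by over 1.5 times.

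Over all genes, Polygalae 500 (3451 calls) and wortmannin (6499) moved by less than 1.5 times. Over the alternatives other than leaving out 1 library, the counts ran from 874 to 1721 for Aucklandiae 500 (857), 317 to 926 for Zizyphi 500 (315), 18 to 480 for Longan 500 (18), 82 to 217 for Schisandrae 500 (83), 0 to 185 for Liriopis 500 (1), 3 to 2359 for Polygalae 20 (2106) and 419 to 2990 for the Polygalae slope (873). Zizyphi 500 against Longan 500 (37) reached 151 and Schisandrae 500 against Liriopis 500 (56) gave 9 to 216. Other lower doses and slopes of these extracts moved likewise, up to 1018 for Schisandrae 100 (244). With 1 library left out the counts were 421 to 669 for Aucklandiae 500, 121 to 185 for Zizyphi 500, 3 to 9 for Longan 500, 18 to 29 for Schisandrae 500, 0 to 3 for Liriopis 500, 665 to 3368 for Polygalae 20 (665 without its replicate 1), 0 to 605 for Schisandrae 100 (0 without its replicate 3), 14 to 25 for Zizyphi 500 against Longan 500, 7 to 187 for Schisandrae 500 against Liriopis 500 and 496 to 1444 for the Polygalae slope. The percentages of all genes given beside these counts move with them. Depth limits SLC6A9 most, with 122 to 309 counts per library.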
